A study of Mus musculus with 8 samples.

Results

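The genes described here encode the tight junction of the intestinal epithelium: 6 claudins (Cldn2, Cldn3, Cldn4, Cldn7, Cldn15 and Cldn23), occludin (Ocln), the scaffold protein ZO-1 (Tjp1) and the junctional adhesion molecule JAM-A (F11r). They were chosen by name, as epithelial claudins with 3 further proteins of the junction. The rule of choice used no measured response to zinc, but earlier results of these data were known when it was made. These genes are 9 of the 55414 genes in the count table, and all 9 were among the 10707 genes with enough counts to be tested. Expression was measured by bulk RNA-seq in Paneth cells (PCs), the granule-filled secretory cells at the base of the small intestinal crypt, which were sorted by flow cytometry from C57BL/6J mice. A total of 8 mice gave 1 library each. In 4 of them the drinking water was Milli-Q water, a purified laboratory water, and in the other 4 it held 25 mM zinc sulfate, for 7 days in both groups. By their labels all 8 mice, the water controls included, then received an injection of TNF (tumor necrosis factor, a cytokine of acute inflammation) 3 h before their cells were taken, so the design holds no group without TNF. The labels state no age, genotype or TNF dose. The comparison asks what zinc in the drinking water does to PC transcripts after TNF.

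Tight junctions seal the space between neighbouring epithelial cells near their apical border. Claudins are small membrane proteins whose extracellular loops meet between the cells, and the mixture of claudins sets what can pass: some form channels for ions and water, others close the gap. Occludin and JAM-A lie in the same membrane belt, and ZO-1 ties all of them to the actin cytoskeleton. In the small intestine the claudin mixture differs between crypt and villus, the crypt being rich in the channel-forming claudin encoded by Cldn2.

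Library totals ran from 10623658 to 15101627 counts. Levels are given as CPM, counts brought to a common library size after TMM scaling, and levels of different genes are compared only as CPM per kb of annotated exon. PC markers (10 genes, lysozyme and alpha-defensins among them) summed to 393400 to 736000 CPM. After TMM scaling such sums are not shares of all counts. The highest was in water replicate 3, with a TMM factor of 0.7576, and the lowest in zinc replicate 2, with 1.144. The 12 immune and stromal markers summed to 13.8 to 28.9 CPM, and 6 of them, among them Col1a1, Dcn and Kdr, had 0 counts in all libraries. Zinc replicate 3 stood apart. Its 18 TNF response genes summed to 164.7 CPM, against 1875 to 2177 CPM in the other 7 libraries, and Icam1, Cxcl1, Cxcl2 and Cxcl10 had 0 counts there. These values go against its label, which gives TNF as for the rest. In the same library 12 enterocyte markers summed to 235 CPM, against 23.8 to 77.5 CPM elsewhere. Enteroendocrine and tuft cell markers were also highest there, at 16.5 CPM against 1.72 to 12.7 CPM. Goblet cell markers (10 genes) summed to 10520 to 14890 CPM with water and to 10290 to 15250 CPM with zinc, and were lowest in zinc replicate 3. Within this list the genes differed. Fcgbp (1270 CPM) and Zg16 (109 CPM) were highest there, while Muc2 (2640 CPM) was below all libraries but water replicate 4. Crypt stem cell markers (10 genes) summed to 432 to 619.5 CPM with water and to 507 to 1103 CPM with zinc, with 1067 CPM in zinc replicate 3, and the median log2 fold change of those tested was 0.89. Fold changes of the 9 genes are therefore given with and without this library. In bulk samples a smaller share of cells of a type and less RNA per cell cannot be told apart.

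Cldn2 was the highest of the 9 genes, with a level of 210.2 ± 67.3 CPM per kb (mean ± SD over the 8 libraries), higher than 99.4% of all tested genes. Cldn3 followed at 127 ± 16.6, Cldn7 at 124 ± 36.9 and Cldn15 at 71.0 ± 4.85 CPM per kb. F11r stood at 48.0 ± 15.01 and Cldn4 at 39.7 ± 8.35 CPM per kb. Far below these came Tjp1 at 7.63 ± 0.813, Ocln at 4.79 ± 0.244 and Cldn23 at 1.73 ± 0.326 CPM per kb. Thus 5 claudins and JAM-A were in the top 3% of tested genes per length, while ZO-1 and occludin transcripts stood at percentiles 82.6 and 73.8.

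Not every step of this order held in each mouse. From Cldn4 downward, through Tjp1 and Ocln to Cldn23, the ranges of neighbours did not overlap, and the order held in 8 of 8 libraries. Cldn15 was above F11r in all 8 libraries too, although the ranges of the genes overlapped. Cldn2 exceeded Cldn3 in 7 of 8 libraries, all but zinc replicate 3, and Cldn7 exceeded Cldn15 in the same 7. Cldn3 and Cldn7 did not differ beyond their spread over the 8 libraries: Cldn3 was higher in 3 of 8, all of them with zinc. The level of Cldn7 relative to Cldn3 was 1.049 to 1.191 with water. In zinc replicates 1 to 4 it was 0.758, 1.049, 0.504 and 0.950. Their order also depended on length, since with the longest transcript in place of all annotated exons Cldn7 stood at 196 CPM per kb and Cldn3 at 127. F11r was above Cldn4 in 6 of 8 libraries.

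**Figure D1:**
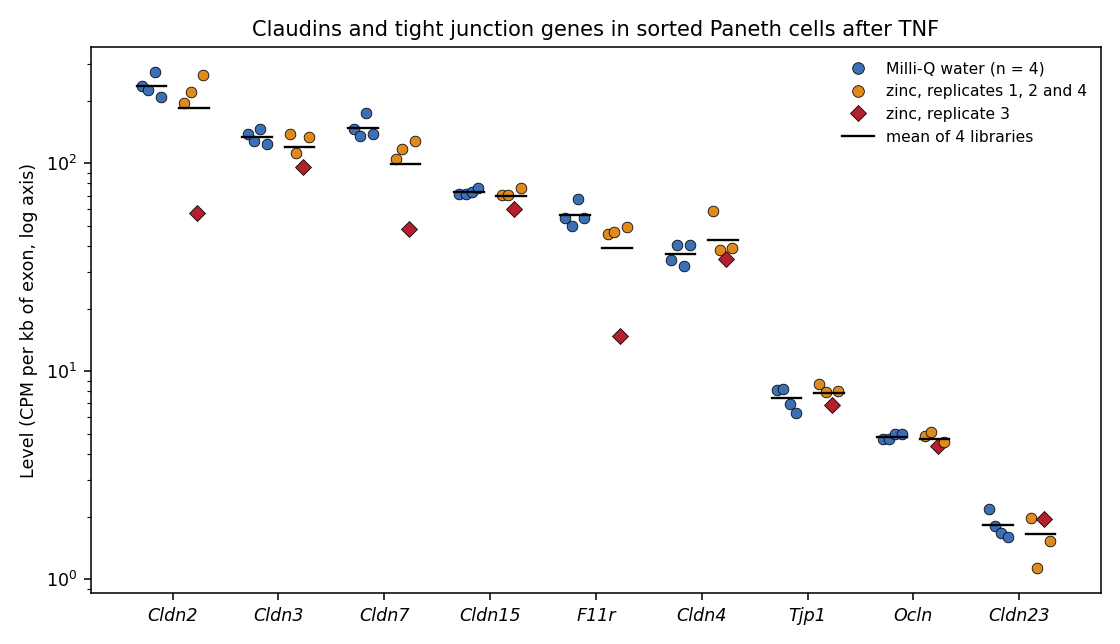
Level of each gene in CPM per kb of exon, on a log axis, in the 4 Milli-Q water libraries (blue) and the 4 zinc libraries (orange, with zinc replicate 3 as a red diamond). Black bars are means of 4 libraries. Cldn2 stood highest in 7 of 8 libraries, and zinc replicate 3 lay far below the other zinc libraries for Cldn2, Cldn7 and F11r.

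The first role is that of channel formers. Cldn2 (ENSMUSG00000047230, chromosome X:138701480-138712135, plus strand, GRCm39) encodes a claudin that forms channels for small cations and water. With Milli-Q water, replicates 1 to 4 held 805, 776, 942.5 and 719 CPM of Cldn2. With zinc, replicates 1 to 4 held 669, 753, 199 and 916 CPM. The groups overlapped, and 3 of the zinc libraries lay in or near the water range while the remaining one was the lowest of the 8. Means were 811 ± 94.8 CPM in the water group and 634 ± 308 CPM in the zinc group (± SD of 4 mice). The log2 fold change, zinc over water, was -0.35 (SE 0.367, 95% confidence interval -1.17 to 0.46; edgeR quasi-likelihood test, adjusted p = 0.693). Without zinc replicate 3 it was -0.05 (SE 0.149), so nearly all of the difference in means came from that library.

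Cldn15 (ENSMUSG00000001739, chromosome 5:136995470-137004712, plus strand) encodes the other channel former of the small intestine, a cation channel through which sodium returns to the lumen. Its water libraries held 154, 155, 158 and 166 CPM. Its zinc libraries held 154, 153, 132 and 165 CPM. It was among the steadiest genes here, with an SD of 3.47% of the mean over the water mice, and zinc replicate 3 was again the lowest, by a smaller margin. The log2 fold change was -0.07 (SE 0.134, 95% confidence interval -0.37 to 0.23) and -0.01 without zinc replicate 3. The level of Cldn2 relative to Cldn15 was 2.74 to 3.79 in 7 libraries, with no split between water and zinc, and 0.954 in zinc replicate 3.

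The stretch before the start of Cldn2 is shown because this gene led the claudins and zinc acts on transcription through a short, known DNA element, the core of the metal response element bound by the zinc-sensing factor MTF1. The element was searched as TGCACNC or TGCGCNC on both strands in the 250 bases before the start of the canonical transcript of each gene (GENCODE M39, GRCm39). For Cldn7, Cldn15, Ocln and Tjp1 this start lies inside the gene span given here, which includes longer transcripts. The stretch of Cldn2 follows, and the match is in capitals, 132 bases before the start at its first base.
Cldn2 upstream, chrX:138701230-138701479, plus strand: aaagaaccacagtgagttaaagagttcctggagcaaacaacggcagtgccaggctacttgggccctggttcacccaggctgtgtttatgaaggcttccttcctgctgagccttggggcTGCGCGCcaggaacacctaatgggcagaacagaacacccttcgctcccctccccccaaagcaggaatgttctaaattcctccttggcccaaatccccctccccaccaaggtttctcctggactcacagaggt
One match was found for Cldn2 and 1 for Cldn23, and the windows of the other 7 genes held none of these letters. That is 2 of 9 genes, where 21.9% of the windows of 21770 protein-coding genes, and 27.3% of those of the 10365 tested genes among them, hold a match. For comparison, the windows of the zinc-induced genes Mt1, Mt2 and Slc30a1 held 1, 2 and 1. A match of letters is no evidence of binding, and as given above Cldn2 was not higher with zinc.

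Among the claudins counted as sealing, Cldn3 (ENSMUSG00000070473, chromosome 5:135015068-135016326, plus strand, 1 exon) held 175, 162, 184 and 156 CPM in the water libraries. With zinc it held 174, 140.5, 121 and 169 CPM. Zinc replicates 3 and 2 were below all water libraries, and the other zinc libraries lay within the water range. The log2 fold change was -0.16 (SE 0.159, 95% confidence interval -0.52 to 0.19), or -0.07 without zinc replicate 3. An antisense long noncoding RNA, Wbscr25, covers 72% of the exon of Cldn3, but it had 10 counts in total against 16353 for Cldn3. The sources used here do not state whether reads were counted by strand.

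Cldn4 (ENSMUSG00000047501, chromosome 5:134973973-134975788, minus strand, 1 exon) lies 39.3 kb from Cldn3 and encodes a claudin that tightens the junction. Its water libraries held 62.4, 73.8, 58.0 and 73.3 CPM, and its zinc libraries 107, 69.4, 62.6 and 71.1 CPM. Here zinc replicate 1 stood above all others, while zinc replicate 3 was within the water range. The log2 fold change of 0.21 (SE 0.187, 95% confidence interval -0.20 to 0.62) was 0.02 without zinc replicate 1 and 0.30 without zinc replicate 3. Despite their shared location, Cldn3 and Cldn4 thus did not have their highest and lowest values in the same libraries.

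Cldn7 (ENSMUSG00000018569, chromosome 11:69852648-69858711, plus strand) encodes a claudin that also lies along the lateral membrane and binds the adhesion protein EpCAM. In the water mice it stood at 308, 286, 368 and 292 CPM. In the zinc mice it stood at 221, 247, 102 and 269 CPM. Every zinc library was below every water library, so the groups did not overlap on this scale. They did overlap when counts were divided by library totals without TMM scaling, where water replicate 4 stood at 260.1 and zinc replicate 2 at 282.5. Means were 314 ± 37.6 and 209.9 ± 74.6 CPM, a log2 fold change of -0.58 (SE 0.267, 95% confidence interval -1.17 to 0.013). The difference did not pass the test: the unadjusted p was 0.0543 and the adjusted p 0.485 (edgeR quasi-likelihood test, Benjamini-Hochberg over all tested genes). Without zinc replicate 3 the fold change was smaller and its error too, -0.35 (SE 0.133), with an unadjusted p of 0.0227 and an adjusted p of 0.584 by the same edgeR test. The groups still did not overlap. The opposite-strand gene Elp5, with 2782 counts to 26556 for Cldn7, overlaps 15.7% of the Cldn7 exon length.

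Cldn23 (ENSMUSG00000055976, chromosome 8:36291866-36293713, minus strand, 1 exon) encodes a claudin best known from the differentiated, luminal epithelium. It held 331 counts in all, or 2.96 to 4.03 CPM with water and 2.08 to 3.65 CPM with zinc. The groups overlapped, at a log2 fold change of -0.15 (SE 0.263, 95% confidence interval -0.73 to 0.43); it was -0.24 without zinc replicate 3, -0.05 without water replicate 1 and -0.01 without zinc replicate 2. It was the only member that was higher in zinc replicate 3 than the mean of the other zinc libraries. All values lay well above the 0.179 to 0.369 CPM to which 3 counts correspond, a limit that covers counting error only.

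Of the other membrane proteins, F11r (ENSMUSG00000038235, chromosome 1:171265092-171292958, plus strand) encodes JAM-A, an immunoglobulin-family protein that takes part in junction assembly and in the passage of leukocytes. Its level was 189.8, 174, 232.5 and 189 CPM with water. With zinc it was 159, 162.5, 51.0 and 171 CPM. As for Cldn7, every zinc library was below every water library, although the gap between zinc replicate 4 and water replicate 2 was narrow. With library totals in place of TMM scaling the groups overlapped. The log2 fold change was -0.53 (SE 0.320, 95% confidence interval -1.24 to 0.18; edgeR adjusted p = 0.526), and -0.25 (SE 0.128) without zinc replicate 3, where the groups still did not overlap.

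Ocln (ENSMUSG00000021638, chromosome 13:100630334-100689535, minus strand) encodes occludin, a membrane protein of another family than the claudins. It held 44.2, 44.3, 46.9 and 46.9 CPM with water and 45.6, 47.8, 41.0 and 43.0 CPM with zinc. This was the narrowest spread among the 9 genes, 3.42% of the mean in the water mice. The log2 fold change of -0.04 (SE 0.117) had a 95% confidence interval of -0.30 to 0.22, so larger differences in either direction lie outside the interval, and it was 0.003 without zinc replicate 3. The level of F11r relative to Ocln was 9.22 to 13.4 per kb in 7 libraries and 3.38 in zinc replicate 3.

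The scaffold gene Tjp1 (ENSMUSG00000030516, chromosome 7:64945898-65177529, minus strand) held 64.3, 65.0, 55.4 and 49.8 CPM with water and 68.6, 62.8, 54.5 and 63.4 CPM with zinc. The ranges overlapped widely, and no library stood apart. Its log2 fold change was 0.09 (SE 0.142, 95% confidence interval -0.23 to 0.40), 0.15 without zinc replicate 3 and 0.02 without water replicate 4. Water replicates 3 and 4 were the lowest of their group. In these 2 libraries genes with long transcripts were low overall (Spearman correlation of a gene's deviation with its length -0.231 and -0.239 across genes, against 0.0190 to 0.188 in the other 6), and without them the Tjp1 fold change was -0.06. With an offset for length in the fit it was 0.07.

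Together the claudins made up a small and, in 7 of 8 mice, similar part of the PC transcriptome. Claudin transcripts took 0.132 to 0.172% of all counts in these 7 libraries and 0.0710% in zinc replicate 3. Summed per length, they reached 564 to 710 CPM per kb against 304 in zinc replicate 3. Within this pool Cldn2 held a mean share of 35.0%, Cldn3 22.5%, Cldn7 20.9%, Cldn15 12.8% and Cldn4 7.21%. Cldn12, which is outside the 9 genes, added 1.10% and Cldn23 0.32%. By counts and not per length, the Cldn2 share was 48.6%.

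The make-up was similar in 7 of the 8 libraries. The Cldn2 share was 36.9% ± 1.46 with water and 33.2% ± 9.87 with zinc (SD, n = 4), and lay between 33.9 and 40.9% in all libraries but zinc replicate 3, where it was 19.0%. In that library Cldn3 led with 31.5% and Cldn15 came next with 19.9%. By counts alone its Cldn2 share was 30.3% (95% Wilson interval 29.4 to 31.2, counting error only), against 48.5 to 55.0% elsewhere. The Cldn7 share did not overlap between groups, with 22.2 to 24.5% in the water mice and 15.9 to 20.8% in the zinc mice. The share of Cldn12 per length did not overlap either, with 1.18 to 1.31% and 0.704 to 1.09%. By counts the Cldn12 share did overlap, with 4.88 to 5.345% and 3.014 to 5.155%. That of Cldn7 did not, with 18.69 to 20.41% and 15.54 to 17.34%. Shares of the other claudins overlapped. These shares do not depend on the scaling of the libraries, but they depend on each other and are given without a test.

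**Figure D2:**
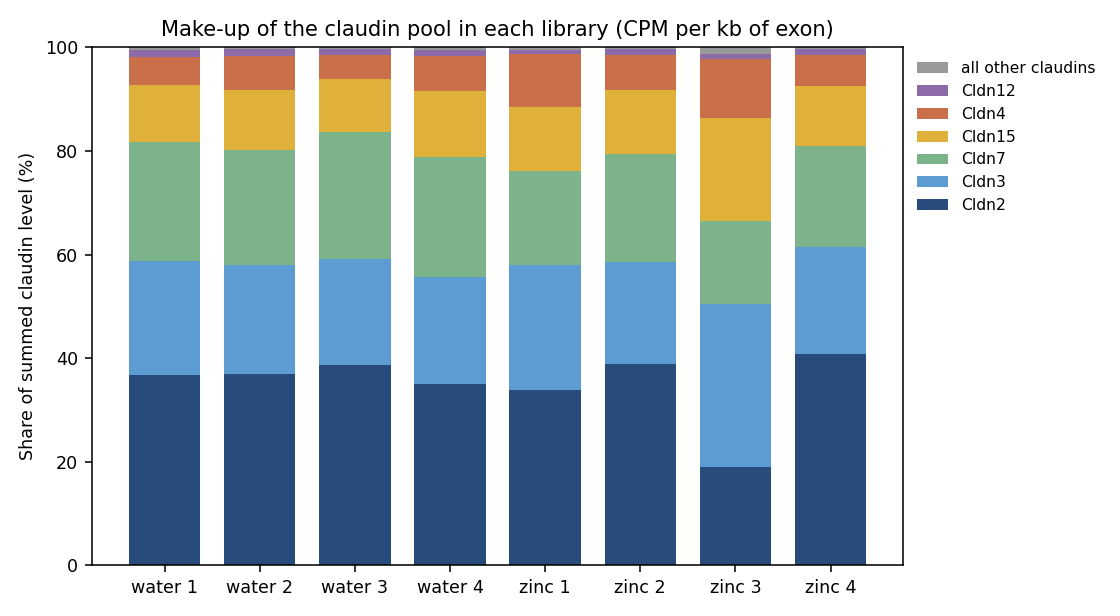
Share of each claudin in the summed claudin level (CPM per kb of exon, in %) in the 8 libraries, 4 with Milli-Q water and 4 with zinc. Cldn2 took 33.9 to 40.9% in 7 libraries and 19.0% in zinc replicate 3, where Cldn3 (31.5%) and Cldn15 (19.9%) took more.

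Across the 9 genes none passed the test between zinc and water, with adjusted p from 0.485 to 0.8998 by the edgeR quasi-likelihood test. Among all 10707 genes the percentage called at an adjusted p under 0.05 was also 0%. At an unadjusted p under 0.05 it was 0 of the 9 members against 10.2% of all tested genes. In some alternatives it was 1 member, Cldn7. The share of all genes with such a p was then 6.87% by DESeq2, 12.4% by limma-voom and 9.13% with no filter on low counts. It was 8.06% without zinc replicate 3 and 17.9% without zinc replicate 4. With all 8 libraries in edgeR, fold changes were below 0 for 7 members and above 0 for Cldn4 and Tjp1. Their median was -0.15 against 0.0062 over all genes. Without zinc replicate 3 the median was -0.05 and 6 members were below 0. The groups did not overlap for 2 of 9 members, Cldn7 and F11r, both lower with zinc; with library totals and no TMM scaling it was 0 of 9, where 3.38% of all genes did not overlap. Among all tested genes 5.87% did not overlap in either direction and 3.12% did so with zinc lower. Without zinc replicate 3 the same 2 members did not overlap, where the share of all genes was 7.82% in either direction and 3.77% with zinc lower.

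**Figure D3:**
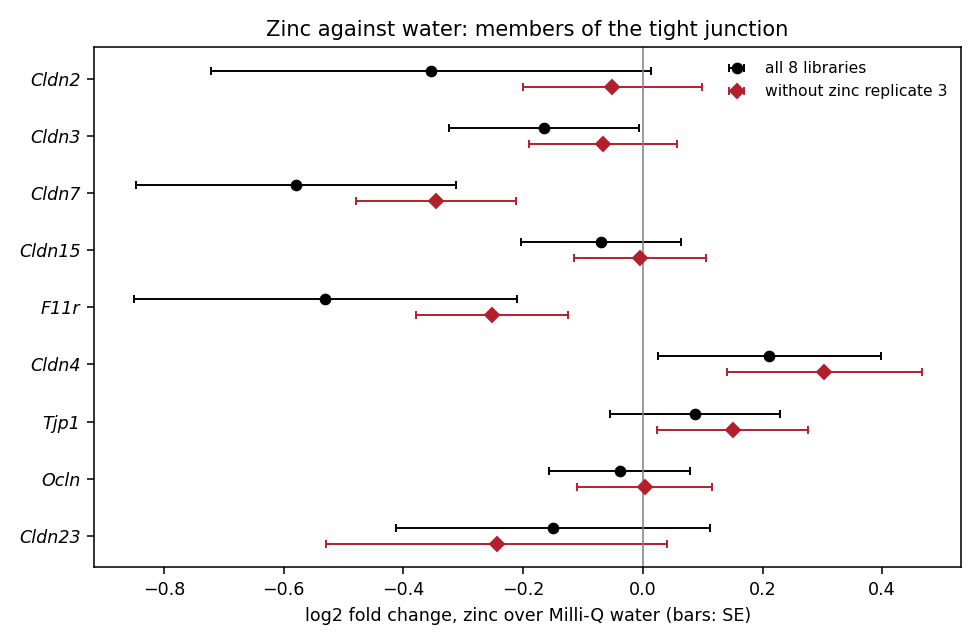
Log2 fold change, zinc over Milli-Q water, of the 9 genes with all 8 libraries (black circles) and without zinc replicate 3 (red diamonds). Bars are standard errors. Cldn2 went from -0.35 to -0.05 and F11r from -0.53 to -0.25, while Cldn7 remained the lowest at -0.35.

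For Cldn2, Cldn7 and F11r most of the spread within the zinc group came from 1 mouse. The SD of the 4 zinc libraries was 48.6% of the mean for Cldn2 and 41.8% for F11r, and without zinc replicate 3 it was 16.2 and 3.95%. In zinc replicate 3, Cldn2 was at -1.97 on the log2 scale relative to the mean of the other 3 zinc libraries, F11r at -1.69 and Cldn7 at -1.27. The others were closer: Cldn3 at -0.42, Cldn4 at -0.40, Cldn15 and Tjp1 at -0.25, Ocln at -0.15 and Cldn23 at 0.33. Over all tested genes the 5th and 95th percentiles of this ratio were -1.64 and 1.31, and 10.5% of genes were below -1. Among the members 3 of 9 were below -1, and 6 of 9 had their lowest value of all 8 libraries there, as did 30% of all genes. The low TNF response genes and the higher enterocyte, enteroendocrine and tuft cell markers given above were seen in this library. Crypt stem cell markers summed to 1103, 787 and 1067 CPM in zinc replicates 1, 2 and 3, above the water range. In zinc replicate 4 they stood at 507 CPM, within it. Cldn7 stood at 221, 247 and 102 CPM in zinc replicates 1, 2 and 3, below all other libraries. In zinc replicate 4 it stood at 269 CPM, the highest of the zinc group. After TMM scaling, water replicate 3 had the highest stem cell marker sum (619.5 CPM), Cldn7 and F11r of its group. Its TMM factor, 0.7576, was the lowest of the 8. By library totals its Cldn7 was 278.8, against 332.6 and 318.4 in water replicates 1 and 2. Its F11r was then 176, against 204.7 and 193. The marker sums are given only after TMM scaling. The part of all these markers in the low values of zinc replicate 3 and in the lower Cldn7 and F11r was not tested. PC markers did not set zinc replicate 3 apart, at 471500 CPM in sum.

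**Figure D4:**
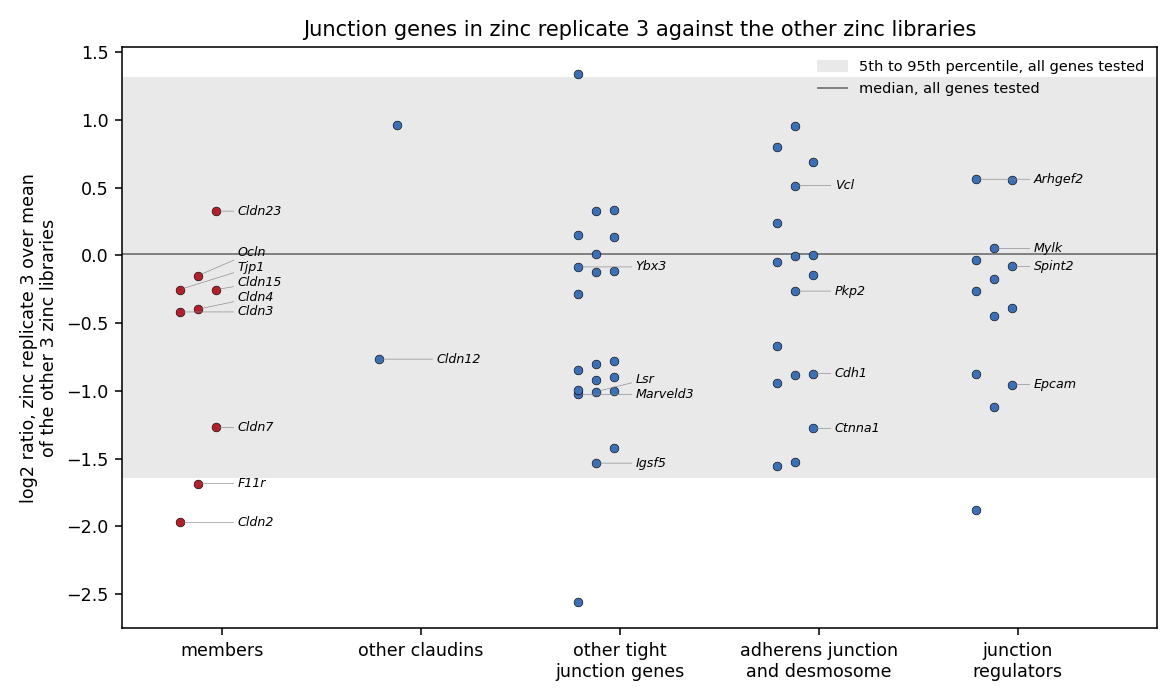
Log2 ratio of zinc replicate 3 to the mean of the other 3 zinc libraries for each tested junction gene, by list (1 point per gene, members in red, genes discussed in the text labelled). The grey band is the 5th to 95th percentile of all 10707 tested genes, -1.64 to 1.31, and the line their median. Cldn2 (-1.97) and F11r (-1.69) lay below the band, and 6 members lay within 0.5 of 0.

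Beyond these 9, few claudins were measurable in PCs. Of 29 further claudin symbols 28 were in the table, 20 of them had 0 counts in all libraries and only Cldn12 and Cldn9 were tested. Cldn12, which encodes a widely expressed claudin without the usual scaffold-binding tail, stood at 6.46 ± 1.94 CPM per kb, between Tjp1 and Ocln. With water it held 85.3, 74.9, 89.6 and 72.4 CPM, and with zinc 41.3, 59.7, 33.8 and 71.5 CPM. The groups did not overlap, narrowly so at zinc replicate 4, and the log2 fold change of -0.64 (SE 0.224) had an unadjusted p of 0.0161 and an adjusted p of 0.485 (edgeR), which did not pass. Without zinc replicate 3 the fold change was -0.48 (SE 0.169). Cldn9 differed the other way. It held only 80 counts, 0.440 ± 0.298 CPM with water and 1.11 ± 0.491 CPM with zinc, with a log2 fold change of 1.35 (SE 0.544), an unadjusted p of 0.0316 and an adjusted p of 0.485 (edgeR), and its groups overlapped. The most abundant claudin left untested had 36 counts over the 8 libraries.

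Among 27 other tight junction genes, 22 were tested and 0 passed in either direction. Fold changes were above 0 for 12 and below 0 for 10, with a median of 0.03. An unadjusted edgeR p under 0.05 belonged to 3 of the 22, all lower with zinc, against 10.2% of all tested genes. The smallest p values belonged to Igsf5 and Marveld3. Igsf5, which encodes a further junctional adhesion molecule, held 10.2 to 15.5 CPM with water and 2.95 to 9.25 CPM with zinc; its log2 fold change was -0.78 (SE 0.308), at an adjusted p of 0.485 in edgeR. Marveld3, a relative of occludin, held 43.4 to 49.0 and 17.8 to 41.4 CPM, and its log2 fold change was -0.55 (SE 0.221), at the same adjusted p. For both genes the groups did not overlap, which makes 2 of the 22 against 5.87% of all tested genes. Without zinc replicate 3 their fold changes were -0.51 and -0.35. The highest per length were Lsr, a protein of the contacts where 3 cells meet, and Ybx3, a transcription factor held at the junction by ZO-1. Lsr showed the same single library: 128.8 CPM in zinc replicate 3 and 249.8 to 268 CPM in the other 7. Ybx3 kept to 104 to 113 CPM in all 8, at a log2 fold change of 0.003 (SE 0.121).

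The neighbouring adherens junction and desmosome genes, 17 in all and all tested, had 0 calls. At an unadjusted edgeR p under 0.05 it was 0 of the 17, against 10.2% of all tested genes. Fold changes were below 0 for 11, with a median of -0.12. E-cadherin (Cdh1), which holds epithelial cells together, was the highest per length at 116 ± 23.5 CPM per kb, a little below Cldn7, with a log2 fold change of -0.13 (SE 0.223). The catenin that links it to actin, Ctnna1, had a fold change of -0.15 (SE 0.267). Both were lowest in zinc replicate 3, at 316 and 162 CPM, and without it their fold changes were 0.05 and 0.08. The smallest p values were those of the desmosome protein plakophilin (Pkp2; log2 fold change -0.27, SE 0.147; edgeR adjusted p = 0.503) and vinculin (Vcl; 0.42, SE 0.244; edgeR adjusted p = 0.519). The Vcl value was 0.28 without zinc replicate 3, 0.26 without water replicate 4 and 0.16 without water replicates 3 and 4. The opposite-strand gene Ap3m1 overlaps 24.6% of the Vcl exon length and had more counts, 3263 against 2466.

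Of 14 regulators of the junction 13 were tested and 0 passed, with a median of -0.05. Epcam, whose product binds and stabilizes the Cldn7 protein, was higher per length than any of the 9 genes, at 263 ± 55.1 CPM per kb. It held 737 to 779 CPM with water, 617, 688 and 749 CPM in zinc replicates 1, 2 and 4, and 353 CPM in zinc replicate 3, with a log2 fold change of -0.34 (SE 0.221), or -0.15 without the latter. Spint2, an inhibitor of the membrane protease matriptase, did not follow it, with 605 to 715 CPM in all libraries and a fold change of 0.01 (SE 0.141). Mylk, the myosin light chain kinase that contracts the actin ring and opens the junction, had a log2 fold change of 2.21 (SE 0.684) with an unadjusted p of 0.00841 and an adjusted p of 0.485 (edgeR). It rested on 139 counts over all libraries, 0.123 to 1.01 CPM with water and 0.484 to 3.30 CPM with zinc, and the groups overlapped. Arhgef2, an activator of RhoA at the junction, held 3.52 to 4.55 CPM with water and 4.597 to 7.51 CPM with zinc, without overlap, and its log2 fold change was 0.44 (SE 0.220), at an adjusted p of 0.491 in edgeR. Without zinc replicate 3 it was 0.28. As for Cldn7 and F11r, the groups of Cldn12, Igsf5, Marveld3 and Arhgef2 overlapped once library totals replaced TMM scaling.

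Members also resembled one another to different degrees over the 8 libraries. Pearson's r of log2 CPM ran from -0.53 to 0.99 over the 36 pairs (n = 8, libraries shared by all pairs). Cldn7 and F11r were the closest, at 0.986, and remained at 0.953 without zinc replicate 3. Cldn2 went with F11r at 0.977, but at 0.627 without that library. These values describe 8 libraries in which 1 lies far out, and carry no test.

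For the 3 members highest per length, the genes outside all lists with the most similar pattern were sought over the same 8 libraries. Nearest to Cldn7 were Chic2 (r = 0.997, 0.984 without zinc replicate 3) and Kcns3 (r = 0.997, 0.977 without it). Chic2 held 24.3 to 51.6 CPM in 7 libraries and 8.70 CPM in zinc replicate 3. Kcns3 was near the floor, with 1.03 to 2.46 CPM in 7 libraries and 0 CPM in zinc replicate 3. Its log2 value in that library is therefore set by the 0.5 CPM added before the logarithm. Nearest to Cldn2 were Lxn (r = 0.995, or 0.895 without zinc replicate 3) and Slc11a2, a metal ion transporter (r = 0.993, or 0.867). Slc11a2 held 53.0 to 76.6 CPM in 7 libraries and 9.12 CPM in zinc replicate 3. For Cldn3 they were Tubb2a (r = 0.966, or 0.911) and Zwint (r = 0.960, or 0.885), with means of 10.6 and 11.1 CPM. The genes were selected for high values among all those tested, so the size of r is a description.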

How the data were processed

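RNA-seq of sorted PCs was analysed from the raw counts per Ensembl identifier that the authors deposited as 1 table, with a column for each mouse. The submitters' processing notes name FastQC 0.12.0, STAR 2.7.10a, DESeq2 and the mm39 genome; the counting tool, its strand setting and the annotation release are not given in the sources used here. Identifiers were matched to GENCODE M39 (54749 of 55414), which also gave exon lengths. Samples were grouped by their labels and none was left out. The groups were compared in edgeR 4.0.16 (R 4.3.3; quasi-likelihood F-test) after TMM scaling and the default expression filter, with Benjamini-Hochberg adjustment over 10707 genes and a threshold of 0.05. The steps were tested on simulated data. Confidence intervals of fold changes are at 95%. The members and gene lists were chosen with earlier results of these data known. Besides the members, the genes named were other claudins above the lowest member claudin per kb, per junction list those called, the 2 highest per kb and the 2 of smallest p, and per leading member the 2 genes most like it. Alternatives were other size factors, alpha-defensins removed before normalization, other filters, DESeq2 1.42.0, limma-voom 3.58.1 with sample weights, a block for the replicate number, an offset for length, 6 libraries, and each library left out.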

Additional observations from a re-analysis of the deposited data

Results flagged for a closer look

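In 72 groups of 4 libraries the sample farthest out was compared with Dixon's 95% critical value, and 5 exceeded it, where chance gives about 3.6. Of these, 3 were in zinc replicate 3. F11r stood at 51.01 CPM there and at 158.6 to 171.3 CPM in the other zinc libraries. Lsr stood at 128.8 CPM against 255.3 to 265.9 CPM. The summed TNF response genes stood at 164.7 CPM against 1875 to 1887 CPM. The other 2 were in water replicate 3, with values taken after TMM scaling. Chic2 stood at 51.57 CPM there, above the rest of its group. The summed goblet cell markers stood at 14890 CPM, where the next of its group was at 10920 CPM. The TMM factor of this library, 0.7576, was the lowest of all libraries. These 2 flags were not tested with library totals in place of TMM scaling.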

How the results depend on the processing

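No member passed an adjusted p of 0.05 under any alternative, leave-one-out fits included. Of 153 alternative fold changes of the 9 members, 150 kept their direction. The 3 that did not were Ocln by limma-voom with sample weights (0.0323), Ocln on leaving out single libraries (range -0.0798 to 0.00303) and Tjp1 with 6 libraries (-0.0628). Of 323 for the other named genes, 306 kept it. By DESeq2 size factors, with no filter and by DESeq2, Spint2 was at -0.0022, -0.0023 and -0.0086 and Ybx3 at -0.0048, -0.0048 and -0.011. Over single libraries left out, Spint2 ran from -0.042 to 0.037, Ybx3 from -0.020 to 0.029, Cdh1 from -0.23 to 0.049, Ctnna1 from -0.31 to 0.081 and Lsr from -0.28 to 0.012. DESeq2 called 4 genes of all (Cd74, Slc14a1, Ms4a12 and Lrp1), none of them a junction gene, where edgeR called 0. The Cldn2 share of claudins was 48.6% by counts against 35.0% per length. The number of members without overlap was also counted under alternatives, a set chosen after the values were seen. It was 2 with DESeq2 size factors, where 5.87% of all genes did not overlap, as in the main setting. It was 2 with 6 libraries, where the share of all genes was 16.6%. With single libraries left out it was 2, where that share was 7.81 to 11%, except without zinc replicate 4. There it was 3 (Cldn15 in addition), where 17.8% of all genes did not overlap. The share of all genes thus rose as libraries were left out. With library totals in place of TMM scaling it was 0 members, where 3.38% of all genes did not overlap.

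The replicate numbers did not pair the mice: deviations of same-numbered water and zinc libraries correlated at -0.039 to 0.034. With the replicate number as a block 0 genes were called, 802 against 1092 had an unadjusted p under 0.05, and the median of the members was -0.17. With 4 mice a group and a biological coefficient of variation of 0.269, the 95% intervals of the members limit what could be seen.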
